A study of Mus musculus with 6 samples.

Results

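The genes described here build the postsynaptic side of the neuromuscular junction: the acetylcholine receptor subunits Chrna1, Chrnb1, Chrnd, Chrng and Chrne, the kinase Musk with its partners Lrp4, Dok7 and Rapsn, and the acetylcholinesterase Ache. The 10 genes were chosen by name, and all 10 stood among the 14546 genes with PRO-seq values. They are called the core junction genes here. Of the 10, 9 entered the test of 12451 genes, and Chrne was too low to enter it. PRO-seq is a nuclear run-on assay that labels RNA while RNA polymerase is making it, so its reads show where polymerases were transcribing and not how much finished mRNA a cell holds. Nascent transcription was measured in proliferating mouse muscle stem cells (MuSCs, also called satellite cells) in 3 Ctrl and 3 Kmt5b sKO libraries. The Ctrl genotype was Pax7CreERT/Suv4-20h1WT and the Kmt5b sKO genotype Pax7CreERT/Suv4-20h1KO, where Suv4-20h1 is another name for Kmt5b, a methyltransferase acting on lysine 20 of histone H4. Both genotypes carried the tamoxifen-inducible Cre recombinase driven from Pax7, which acts in cells that express Pax7. The mice were young adults when tamoxifen was given, and the cells were purified from limb and trunk muscle and then cultured.

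At a mature junction, agrin released by the motor nerve binds LRP4 on the muscle surface, LRP4 activates the kinase MuSK, and MuSK together with its adaptor DOK7 signals through rapsyn to gather acetylcholine receptors under the nerve ending. Embryonic and newly formed muscle assembles receptors with the gamma subunit (Chrng), which is exchanged for the epsilon subunit (Chrne) as junctions mature. Acetylcholinesterase ends each signal by cleaving the transmitter and is held in the cleft by the collagen tail ColQ. Receptor genes are known targets of myogenic transcription factors, which bind E-boxes, and the genes active under the nerve carry a short element, the N-box, that binds ETS factors.

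For each gene, reads were counted in the TSS region, the 400 nt from the listed start, and in the gene body, the remainder of the gene. Gene body values are TPM, which corrects for depth and length. TSS values were normalised in the same way, but TSS regions are all equally long, so these values are proportional to reads and are written RPM here. Levels of different genes were compared only by gene body TPM. Sets of 3 values follow the order of replicates 1 to 3. Reads assigned to listed genes ranged from 926904 to 3246052 per library in TSS regions and from 7425428 to 16249139 in gene bodies. Kmt5b itself was not lower in the Kmt5b sKO libraries, with a log2 fold change of 0.14 ± 0.14 (SE) in the gene body (limma, adjusted p = 0.706), so its nascent transcription gave no check of the genotype labels. Pax7, the marker of MuSCs, was present in every library at 25.5 to 53.7 TPM in the gene body. All 8 MuSC markers entered the test with none called, against 2.99% of all gene bodies and 1.66% of all TSS regions. The labels do not say whether libraries came from separate mice, and p-values measure the spread between these libraries. In such bulk samples, fewer cells of a type and less transcription per cell cannot be told apart.

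The 3 promoters below are printed because their genes span the range of receptor transcription in these cells, from the most transcribed subunit, alpha, through the embryonic gamma subunit to the almost silent adult epsilon subunit. They are RefSeq sequences of build GRCm38.p6, written 5′ to 3′ on the gene's strand and ending at the base before the listed start. Chrng lies at chr1:87205651-87205810 on the plus strand, Chrna1 at chr2:73580339-73580498 on the minus strand and Chrne at chr11:70619217-70619376 on the minus strand. Capitals mark E-boxes, spelled CANNTG, and the N-box, spelled CCGGAA and searched on both strands.
Chrng: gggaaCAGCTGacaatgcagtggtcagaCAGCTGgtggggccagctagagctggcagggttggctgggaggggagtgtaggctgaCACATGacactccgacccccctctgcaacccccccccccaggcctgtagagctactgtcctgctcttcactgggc
Chrna1: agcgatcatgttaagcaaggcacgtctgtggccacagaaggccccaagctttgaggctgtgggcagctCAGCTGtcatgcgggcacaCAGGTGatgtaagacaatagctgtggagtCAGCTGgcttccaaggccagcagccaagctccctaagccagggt
Chrne: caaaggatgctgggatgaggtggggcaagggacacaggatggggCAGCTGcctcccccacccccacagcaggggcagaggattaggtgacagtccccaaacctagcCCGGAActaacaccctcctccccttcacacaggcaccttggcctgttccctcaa

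A promoter entry, from 250 bases before to 50 after a RefSeq start, was matched for 7 of the 10 genes: Chrna1, Chrnb1, Chrng, Chrne, Musk, Dok7 and Ache. The Chrng and Chrna1 windows each held 3 E-boxes, and in each 2 of these had the sequence CAGCTG. At least 1 CAGCTG was present in 16.3% of 32851 RefSeq promoters of the same length, and the share with 2 copies was not counted. Positions counted back from the RefSeq start were -155, -132 and -75 in Chrng and -92, -73 and -44 in Chrna1, the CAGCTG copies being those at -155 and -132 and those at -92 and -44. Chrne had 1 CAGCTG at -138 and was the only gene of the 7 with the letters CCGGAA, at -76, a hexamer present in 14.9% of all promoters. Musk had 1 CAGCTG at -68, and Chrnb1, Dok7 and Ache had none. E-boxes of any kind were present in 72.3% of all promoters, so their presence does not set these windows apart, and the matches describe letters and not bound sites.

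Nearly the whole postsynaptic set was transcribed in these cultures of proliferating MuSCs. Ordered by mean gene body level over all 6 libraries, Chrna1 came first at 395 TPM, followed by Chrng at 219, Dok7 at 144, Chrnd at 127, Lrp4 at 83.3, Rapsn at 80.4, Chrnb1 at 64.0, Musk at 62.7, Ache at 30.1 and Chrne at 0.633 TPM. Chrna1 ranked 81st and Chrng 186th by this mean among the 14546 genes. Chrna1 was above Chrng, Chrng above Dok7, Rapsn above Chrnb1, Musk above Ache and Ache above Chrne in 6 of 6 libraries. Dok7 was above Chrnd and Chrnd above Lrp4 in 5 of 6. Neither Lrp4 and Rapsn nor Chrnb1 and Musk could be placed in order, since each pair kept the stated order in only 3 of 6 libraries. The same bulk libraries held the early differentiation genes Myog at 382 to 1105 TPM and Acta1 at 338 to 1034 TPM. Which cells of the cultures transcribed the core junction genes was not tested.

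**Figure D1:**
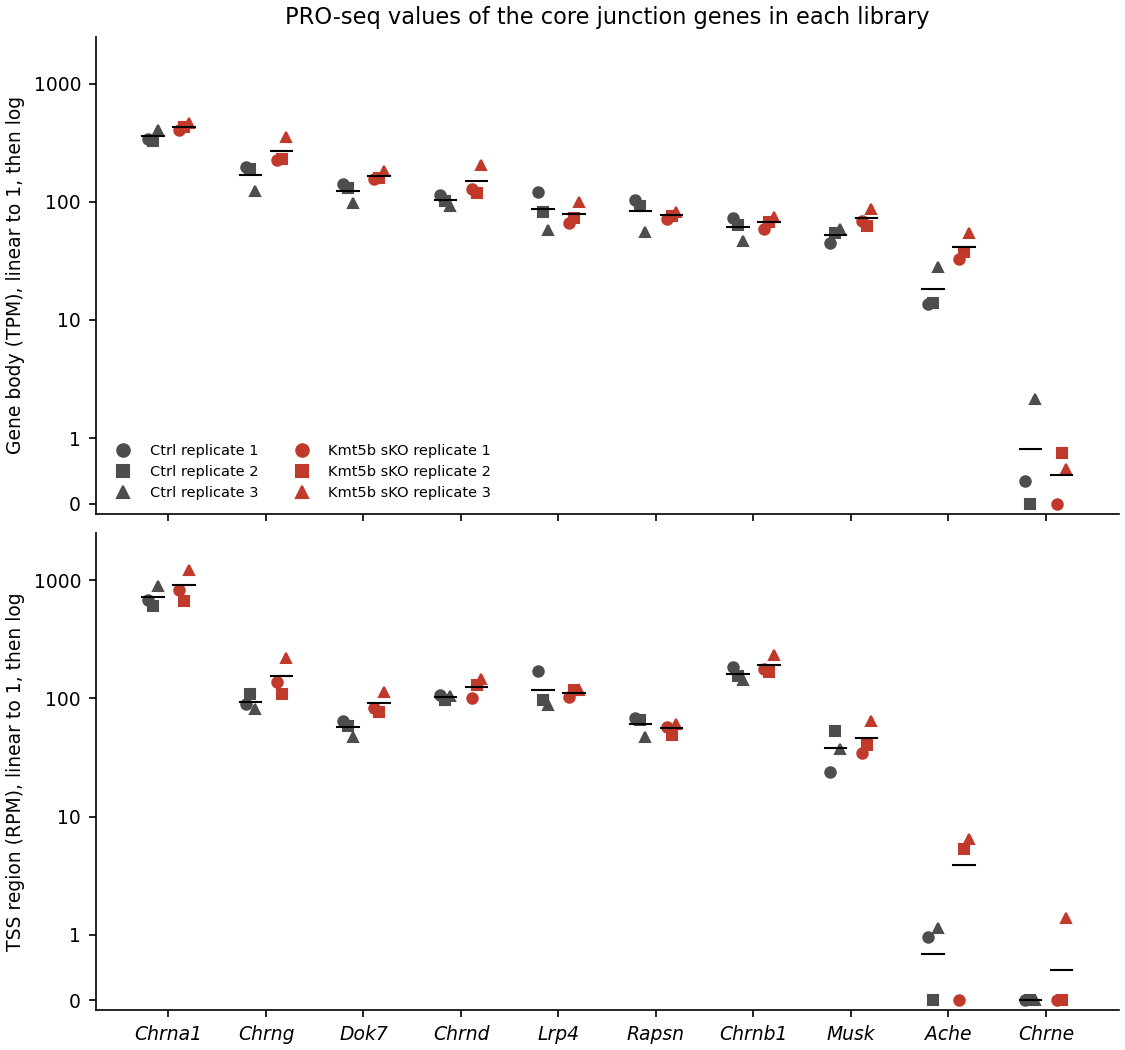
Gene body values (TPM, upper panel) and TSS region values (RPM, lower panel) of the 10 core junction genes in each library, on an axis that is linear up to 1 and logarithmic above. Grey symbols are the 3 Ctrl and red symbols the 3 Kmt5b sKO libraries, the symbol shape gives the replicate number and black lines are group means. Chrna1 stands highest in both panels and Chrne lies at or near 0, while Ache, Chrng, Dok7, Chrnd and Musk show the Kmt5b sKO libraries above the Ctrl libraries in the gene body.

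No core junction gene passed the test between genotypes, but most were higher in Kmt5b sKO MuSCs. Over gene bodies, 0 of the 9 tested genes were called at an adjusted p under 0.1 (limma on log2 of TPM + 0.5), where 2.99% of all tested genes were called, and in the TSS region 0 of 9 were called against 1.66% of all. Without adjustment, 5 of the 9 genes had a p under 0.05 in the gene body and 2 of 9 in the TSS region, where the shares over all tested genes were 15.9% and 10.99%. Run on the reads recovered from the same values, edgeR called 0 of 9 in both regions, against 2.24% of all TSS regions and 6.01% of all gene bodies. DESeq2 called 2 of the 9 gene bodies, Ache and Chrng, against 10.4% of all, and 0 of the 9 TSS regions, against 2.37% of all. In both regions 7 genes were higher and 2, Lrp4 and Rapsn, were lower in Kmt5b sKO. Of all genes tested, 53.8% were higher in the gene body and 58.2% in the TSS region. The median log2 fold change of the 9 was 0.44 (gene body) and 0.28 (TSS region), beside 0.023 and 0.081 over all genes tested. All 3 Kmt5b sKO libraries were above all 3 Ctrl libraries for 6 of 9 genes in the gene body, as were 12.0% of all tested genes, and for 1 of 9 in the TSS region, as were 10.2%. Kmt5b sKO replicate 3 was the highest library for 7 of the 9 genes in both regions. In the gene body Ctrl replicate 3 was the lowest for 6 of the 9. Without Kmt5b sKO replicate 3 the median log2 fold changes were 0.28 and 0.11.

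**Figure D2:**
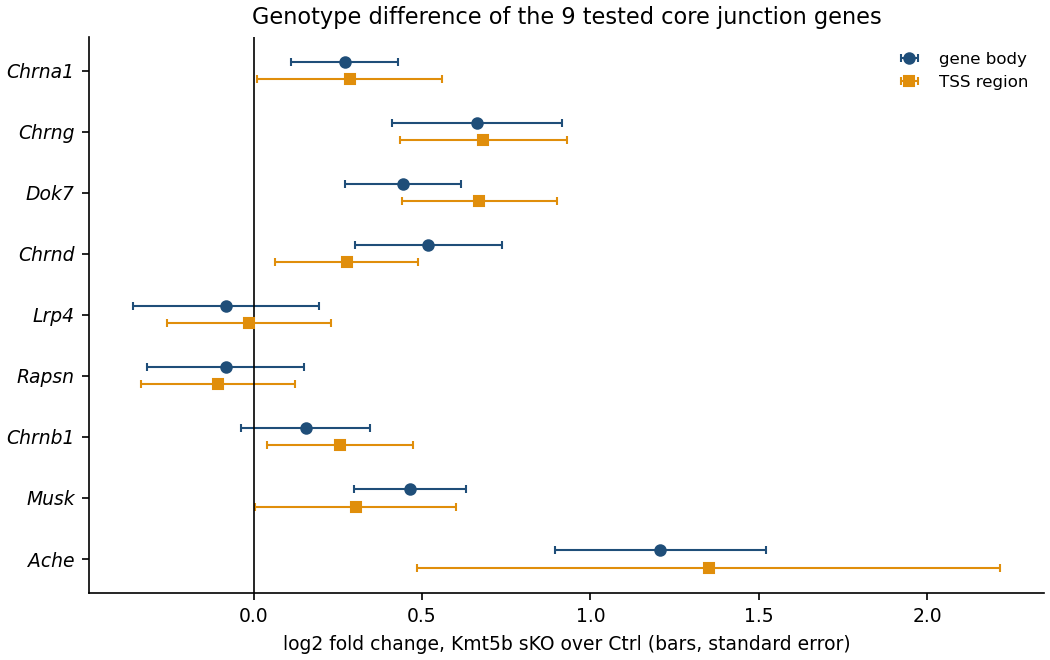
Log2 fold change of Kmt5b sKO over Ctrl for the 9 tested core junction genes, in order of their gene body level, in the gene body (blue circles, on log2 of TPM + 0.5) and in the TSS region (orange squares, on log2 of RPM + 0.5). Bars are standard errors from limma with 3 libraries per group. Ache has the largest estimates, 1.21 and 1.35, with a wide error in the TSS region, and Lrp4 and Rapsn lie just below 0 in both regions.

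Among the receptor subunits, the embryonic gamma subunit showed the largest difference. Chrng, a gene of 12 exons at chr1:87205811-87212694 on the plus strand, had gene body values of 196, 188 and 124 TPM (Ctrl) versus 225, 229 and 355 TPM (Kmt5b sKO). The groups did not overlap, and Kmt5b sKO replicate 3 stood well above all others. The log2 fold change was 0.66 ± 0.25 (SE; limma, adjusted p = 0.263), or 1.58-fold on the log2(TPM + 0.5) scale. Its TSS region gave 89.1, 109 and 81.5 RPM (Ctrl) versus 139, 108 and 219 RPM (Kmt5b sKO), where the second Kmt5b sKO library lay just below the second Ctrl library. The difference there was of the same size, 0.68 ± 0.25 (SE; adjusted p = 0.245). DESeq2 on the recovered reads called the gene body of Chrng with a log2 fold change of 0.65 and an adjusted p of 0.0763, while edgeR gave 0.66 and 0.158. Without Kmt5b sKO replicate 3 the limma estimates were 0.45 in the gene body and 0.41 in the TSS region.

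Chrnd, encoding the delta subunit, lies directly upstream of Chrng on the same strand, at chr1:87190637-87200070 with 12 exons, and the 2 genes are separated by 5740 nt. Its gene body gave 114, 102 and 92.2 TPM (Ctrl) versus 130, 120 and 204 TPM (Kmt5b sKO). The groups did not overlap, and Kmt5b sKO replicate 3 was again the highest library. The log2 fold change was 0.52 ± 0.22 (SE; limma, adjusted p = 0.309), against 0.28 ± 0.21 in the TSS region, where values of 106, 96.5 and 105 RPM (Ctrl) overlapped with 99.98, 130 and 147 RPM (Kmt5b sKO). Without Kmt5b sKO replicate 3 the estimates were 0.28 in the gene body and 0.16 in the TSS region, the latter reaching 0.43 without Kmt5b sKO replicate 1. How far polymerases that run on past the end of Chrnd add to the reads of Chrng was not tested.

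Chrna1, at chr2:73563215-73580338 on the minus strand with 9 exons, encodes the alpha subunit that carries most of the transmitter-binding surface. Gene body values were 343, 328 and 405.20 TPM (Ctrl) versus 405.29, 429 and 462 TPM (Kmt5b sKO). The groups were apart only by the gap between 405.20 and 405.29 TPM. The log2 fold change was 0.27 ± 0.16 (SE; limma, adjusted p = 0.484). TSS values of 688, 606 and 894 RPM (Ctrl) overlapped with 835, 662 and 1219 RPM (Kmt5b sKO), a log2 fold change of 0.28 ± 0.28 (adjusted p = 0.801). This estimate was 0.047 without Kmt5b sKO replicate 3 and 0.49 without Kmt5b sKO replicate 2. Omitting Ctrl replicate 2 gave 0.16 and omitting Ctrl replicate 3 gave 0.44.

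Chrnb1 encodes the beta subunit and lies at chr11:69784036-69795943 on the minus strand, with 11 exons. Its gene body gave 73.2, 63.1 and 46.4 TPM (Ctrl) versus 58.6, 68.1 and 74.3 TPM (Kmt5b sKO). The ranges of the genotypes largely coincided, and the log2 fold change was 0.15 ± 0.19 (SE; limma, adjusted p = 0.771). Its TSS region gave 185, 154 and 143 RPM (Ctrl) versus 179, 166 and 234 RPM (Kmt5b sKO), with a log2 fold change of 0.26 ± 0.22, or 0.11 without Kmt5b sKO replicate 3. The gene body difference turned to -0.027 when Ctrl replicate 3 was left out, and it was 0.077 without Kmt5b sKO replicate 3, 0.25 without Kmt5b sKO replicate 1 and 0.30 without Ctrl replicate 1. Fgf11 ends 124 nt upstream on the same strand and had 36.7 to 88.5 TPM over its own body, a level like that of Chrnb1, and its part in the Chrnb1 values was not tested.

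Chrne, encoding the adult epsilon subunit, was almost without reads. It spans chr11:70614883-70619216 on the minus strand, with 12 exons, and overlaps 4930544D05Rik on the opposite strand. Gene body reads numbered 2, 0 and 12 (Ctrl) and 0, 2 and 2 (Kmt5b sKO), corresponding to 0.35, 0, 2.14, 0, 0.78 and 0.53 TPM. In the TSS region only Kmt5b sKO replicate 3 held reads, 3 in number. A count of 0 allows up to 3 reads, which is 0.67 TPM for the gene body in Ctrl replicate 2 and 0.69 TPM in Kmt5b sKO replicate 1, counting error only. In the same 6 libraries the gamma gene had 124 to 355 TPM. With 18 gene body reads in all, 12 of them in Ctrl replicate 3, a genotype difference in Chrne was not detectable at this depth.

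The kinase and its adaptor were both higher in Kmt5b sKO without passing the test. Dok7, whose product binds and activates MuSK from inside the cell, lies at chr5:35056766-35080964 on the plus strand with 5 exons in the listed isoform. Its gene body gave 141, 130 and 97.8 TPM (Ctrl) versus 156, 158 and 183 TPM (Kmt5b sKO), and its TSS region 64.9, 58.6 and 47.0 RPM (Ctrl) versus 83.3, 77.3 and 113 RPM (Kmt5b sKO). It was the only one of the 9 tested core genes whose groups were apart in both regions. The log2 fold changes were 0.44 ± 0.17 (SE; limma, adjusted p = 0.275) and 0.67 ± 0.23 (adjusted p = 0.203), the former being 0.29 without Ctrl replicate 3.

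Musk, at chr4:58285960-58374302 on the plus strand with 14 exons, encodes the muscle-specific receptor kinase. Gene body values were 45.0, 54.0 and 58.4 TPM (Ctrl) versus 69.5, 62.7 and 86.4 TPM (Kmt5b sKO). These groups did not overlap, with a log2 fold change of 0.47 ± 0.17 (SE; limma, adjusted p = 0.237). In its TSS region, 23.7, 52.9 and 37.3 RPM (Ctrl) overlapped with 34.4, 40.3 and 63.9 RPM (Kmt5b sKO). The TSS difference of 0.30 ± 0.30 rested on 61 to 197 reads per library, whereas the long gene body held an estimated 3610 to 7342. It was 0.0058 without Ctrl replicate 1, 0.046 without Kmt5b sKO replicate 3, 0.49 without Kmt5b sKO replicate 1 and 0.58 without Ctrl replicate 2.

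Lrp4 and Rapsn showed no shift between genotypes beyond the spread of the Ctrl libraries. Lrp4, the agrin receptor, lies at chr2:91457511-91513779 on the plus strand with 38 exons and had gene body values of 121, 81.5 and 58.2 TPM (Ctrl) versus 66.7, 73.3 and 99.0 TPM (Kmt5b sKO). Ctrl replicate 1 was the highest and Ctrl replicate 3 the lowest of the 6. The log2 fold change was -0.082 ± 0.28 (SE; limma, adjusted p = 0.932), and it ran from -0.34 without Ctrl replicate 3 to 0.19 without Ctrl replicate 1. TSS values of 169, 97.7 and 87.5 RPM (Ctrl) versus 102, 117 and 118 RPM (Kmt5b sKO) gave -0.014 ± 0.24, and leaving out the same 2 libraries moved this to -0.20 and 0.28.

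Rapsn encodes rapsyn, the scaffold that clusters receptors, and lies on the same chromosome and strand at chr2:91035620-91045729, with 6 exons. Its gene body gave 104, 92.8 and 55.6 TPM (Ctrl) versus 71.4, 76.4 and 82.6 TPM (Kmt5b sKO), so the 3 Kmt5b sKO libraries lay inside the Ctrl range. The log2 fold change was -0.083 ± 0.23 (SE; limma, adjusted p = 0.914), and it was -0.35 when Ctrl replicate 3 was left out and 0.093 when Ctrl replicate 1 was. For the TSS region, 68.3, 66.1 and 47.6 RPM in Ctrl stood against 57.7, 49.5 and 60.3 RPM in Kmt5b sKO, a difference of -0.10 ± 0.23, or between -0.27 and -0.011 without the same libraries.

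Of the 9 tested core genes, Ache had the largest difference in both regions. It lies at chr5:137288277-137294466 on the plus strand with 5 exons, and encodes the enzyme that cleaves acetylcholine in the synaptic cleft. Ache overlaps Gm42456 on the opposite strand and Mir8116 on the same strand, and their part in its values was not tested. Gene body values were 13.6, 13.8 and 27.9 TPM (Ctrl) versus 33.1, 37.5 and 54.9 TPM (Kmt5b sKO). The groups did not overlap, and Ctrl replicate 3 stood apart from the other 2 Ctrl libraries, closer to Kmt5b sKO replicate 1. The log2 fold change was 1.21 ± 0.31 (SE), a 2.31-fold difference on the log2(TPM + 0.5) scale, with an adjusted p of 0.127 by limma and 0.136 by edgeR. DESeq2 called it with an adjusted p of 0.0283, and limma did so without Ctrl replicate 3, with a log2 fold change of 1.54 and an adjusted p of 0.0301. Without that library limma called 836 of all 12451 gene bodies, against 372 with all 6 libraries. The smallest limma estimate for Ache on leaving out a library was 0.997, without Kmt5b sKO replicate 3. Its TSS region was nearly empty, with 4, 0 and 6 reads (Ctrl) versus 0, 8 and 14 reads (Kmt5b sKO). In reads per nt, the ratio of TSS region to gene body ran from 0 to 0.815. Whether Ache transcription begins at the listed start was not tested. The TSS estimate of 1.35 ± 0.87 (SE; limma, adjusted p = 0.642) rests on those few reads. It ran from 0.68 without Kmt5b sKO replicate 3 to 2.57 without Kmt5b sKO replicate 1.

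The related enzyme and the neuronal receptor family were low or did not enter the test. Butyrylcholinesterase (Bche) had 1.24 to 1.79 TPM in the gene body, with overlapping groups and a log2 fold change of 0.17 ± 0.20 (SE; limma, adjusted p = 0.745). Of 11 neuronal nicotinic subunits, 2 were listed. Chrna10 had 1.35 to 4.02 TPM and a log2 fold change of 0.45 ± 0.37 (adjusted p = 0.643), and Chrna7, at 0.31 to 0.54 TPM, was too low to be tested.

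The pausing index is the TSS value divided by the gene body value, and a high index means that polymerases are concentrated near the start. It was tested for 8 of the core junction genes, leaving out Ache and Chrne, which had libraries without TSS reads. Chrnb1 had the highest mean index over the 6 libraries, 2.78, followed by Chrna1 at 2.05 and Lrp4 at 1.40. Chrnd stood at 0.931, Rapsn at 0.735, Musk at 0.671, Chrng at 0.566 and Dok7 at 0.505. Over all 11698 genes tested, the quartiles were 0.895, 1.59 and 2.73, so Rapsn, Musk, Chrng and Dok7 lay below the lower quartile and Chrnb1 just above the upper one. The index of Chrng ran from 0.455 to 0.655 over the libraries and that of Chrnb1 from 2.44 to 3.14, so these genes did not overlap in any library. Because TSS and gene body values were scaled separately, the absolute size of the index has no physical unit. As reads per nt in the TSS region over reads per nt in the gene body, the ratio ran from 1.72 to 4.43 for Dok7 and from 9.32 to 28.4 for Chrnb1.

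The index did not differ detectably between genotypes for any of the 8 genes. None was called (limma, adjusted p = 0.9997 for each), none had an unadjusted p under 0.05, and 0.0% of all 11698 genes were called, with 452 of these under an unadjusted p of 0.05. The largest estimates were -0.24 ± 0.28 (SE, log2 ratio of Kmt5b sKO to Ctrl) for Chrnd and 0.23 ± 0.29 for Dok7. Dok7 was the only one of the 8 whose groups did not overlap, all 3 Kmt5b sKO libraries being above all 3 Ctrl libraries as for 5.93% of all genes, with 3.09% below. Dok7 had indices of 0.461, 0.450 and 0.480 (Ctrl) versus 0.534, 0.488 and 0.619 (Kmt5b sKO). The median over the 8 genes was 0.018, beside 0.053 over all genes.

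**Figure D3:**
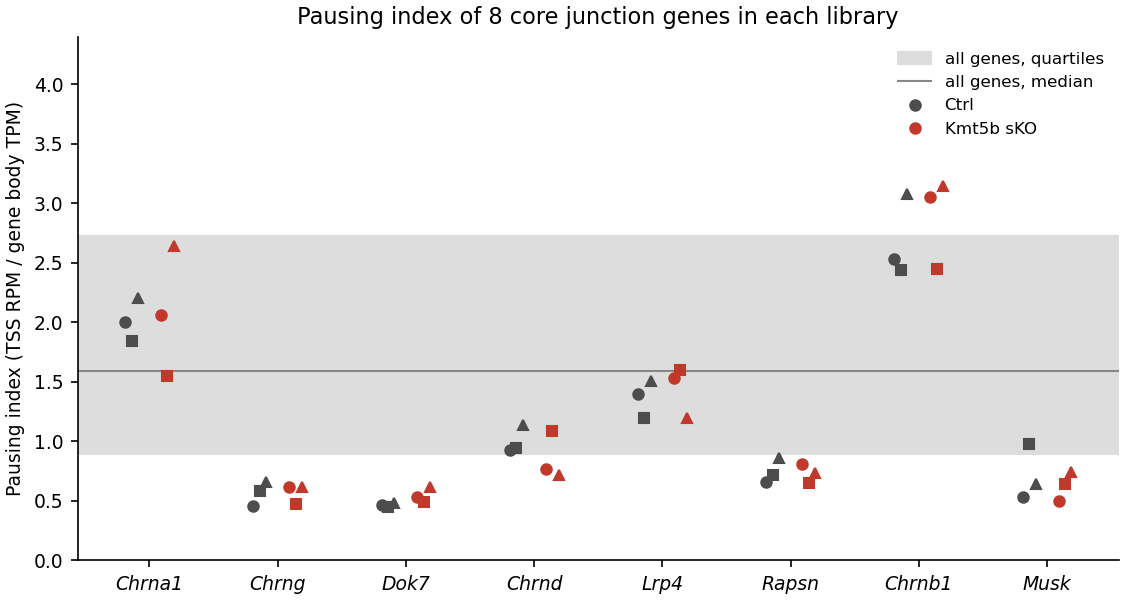
Pausing index (TSS region RPM divided by gene body TPM) of the 8 tested core junction genes in each library, with Ctrl in grey and Kmt5b sKO in red and the symbol shape giving the replicate. The grey band spans the quartiles of all 11698 tested genes, 0.895 to 2.73, and the line is their median of 1.59. Dok7, Chrng, Musk and Rapsn have means below the band and Chrnb1 a mean just above it, and the genotypes overlap for every gene but Dok7.

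A further 56 genes of the junction were followed as lists of ligands and matrix, receptors and signalling, scaffold, transcription, and channels and assembly, and 53 of the 55 listed genes were tested. In the gene body 42 were higher and 11 lower in Kmt5b sKO, where 53.8% of all tested genes were higher. Of the 53, 2 were called higher and 0 lower, or 3.77% against 2.99% of all genes. In the TSS region 40 were higher and 13 lower, where 58.2% of all tested genes were higher. Again 2 were called higher and 0 lower, against 1.66% of all. The median log2 fold changes were 0.17 and 0.22, both below those of the 9 core junction genes and above the 0.023 and 0.081 over all genes.

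Col13a1, a transmembrane collagen of the postsynaptic membrane, was called in both regions. Its gene body rose from 9.33, 13.2 and 7.62 TPM in Ctrl to 19.4, 26.5 and 32.1 TPM in Kmt5b sKO, a log2 fold change of 1.33 ± 0.25 (SE; limma, adjusted p = 0.0744). Its TSS region rose by 1.27 ± 0.34 (adjusted p = 0.0853). All 10 ligand and matrix genes were tested, and 9 were higher in the gene body, beside 53.8% of all tested genes. The only lower one, Lamb2, the synaptic laminin chain, had 26.4, 26.3 and 9.81 TPM (Ctrl) versus 18.1, 18.1 and 20.1 TPM (Kmt5b sKO) (-0.018 ± 0.36, not called). Agrn and Colq, named after their values were seen as the direct partners of LRP4 and of acetylcholinesterase, were not called. Agrn, whose muscle form lacks the nerve form's clustering activity, gave 0.51 ± 0.19 in the gene body (adjusted p = 0.257), with 4.47 to 5.50 TPM in Ctrl and 6.03 to 9.07 TPM in Kmt5b sKO. Colq gave 1.197 ± 0.37 (adjusted p = 0.174), with 1.21 to 1.45 TPM in Ctrl and 2.12 to 6.83 TPM in Kmt5b sKO. Colq passed the filter only through its TSS values in Kmt5b sKO, with a mean of 1.53 RPM against 0.19 RPM in Ctrl.

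Among the transcriptional regulators, Hdac9 and Smyd1 were each called in 1 region. Hdac9, a class IIa deacetylase that links muscle activity to receptor gene transcription, rose in the gene body from 2.44, 3.09 and 1.72 TPM to 8.62, 5.01 and 6.16 TPM (log2 fold change 1.28 ± 0.26 SE; limma, adjusted p = 0.0798). Smyd1, a muscle-restricted methyltransferase, rose in the TSS region from 57.6, 59.2 and 45.5 RPM to 119, 74.0 and 169 RPM (1.08 ± 0.26, adjusted p = 0.0694), and its gene body difference of 0.70 ± 0.18 was not called (adjusted p = 0.129). Gabpa, the ETS subunit that binds the N-box, had 21.9 to 30.1 TPM over all libraries with overlapping groups, the lowest log2 fold change of its list (-0.13 ± 0.14, adjusted p = 0.741). On the recovered reads edgeR and DESeq2 also made these calls on Col13a1, Hdac9 and Smyd1, and both called the gene body of Smyd1 as well (adjusted p = 0.0562 and 0.00391). The limma calls in the gene body were lost without Ctrl replicate 1 or any of the 3 Kmt5b sKO libraries. Adjusted p rose up to 0.238 for Col13a1 and 0.244 for Hdac9. In each of these settings limma called 0 gene bodies over all tested genes, so the loss was not particular to these genes. In the TSS region Col13a1 kept its call only without Ctrl replicate 2, and Smyd1 only without Ctrl replicate 2 or Kmt5b sKO replicate 2, with adjusted p up to 0.344 and 0.278. Median ratio scaling also ended the TSS call of Col13a1 (adjusted p = 0.109). Both TSS calls were lost without the filter on low values (adjusted p = 0.379 for Col13a1 and 0.407 for Smyd1) and without the trend (0.263 and 0.305). In both settings limma called 0 TSS regions over all genes. With a replicate block, where 0 genes were called over all in either region, all 4 calls were lost. Adjusted p was 0.201 and 0.246 for the TSS region and gene body of Col13a1, 0.247 for Hdac9 and 0.191 for Smyd1.

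No gene of the other lists was called. The largest gene body estimates were 0.76 ± 0.26 (SE; limma, adjusted p = 0.222) for the neuregulin receptor Erbb3, 0.81 ± 0.21 (adjusted p = 0.128) for the scaffold gene Dtna and 0.94 ± 0.35 (adjusted p = 0.249) for the muscle sodium channel Scn4a. The lowest were -0.41 ± 0.20 for the kinase Cdk5 (adjusted p = 0.375), -0.20 ± 0.18 for Dtnb (adjusted p = 0.681) and -0.39 ± 0.19 for Dpagt1, an enzyme of N-glycosylation (adjusted p = 0.369). Erbb3 and Dtna were higher in all 3 Kmt5b sKO libraries than in any Ctrl library, while the groups of Scn4a overlapped.

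**Figure D4:**
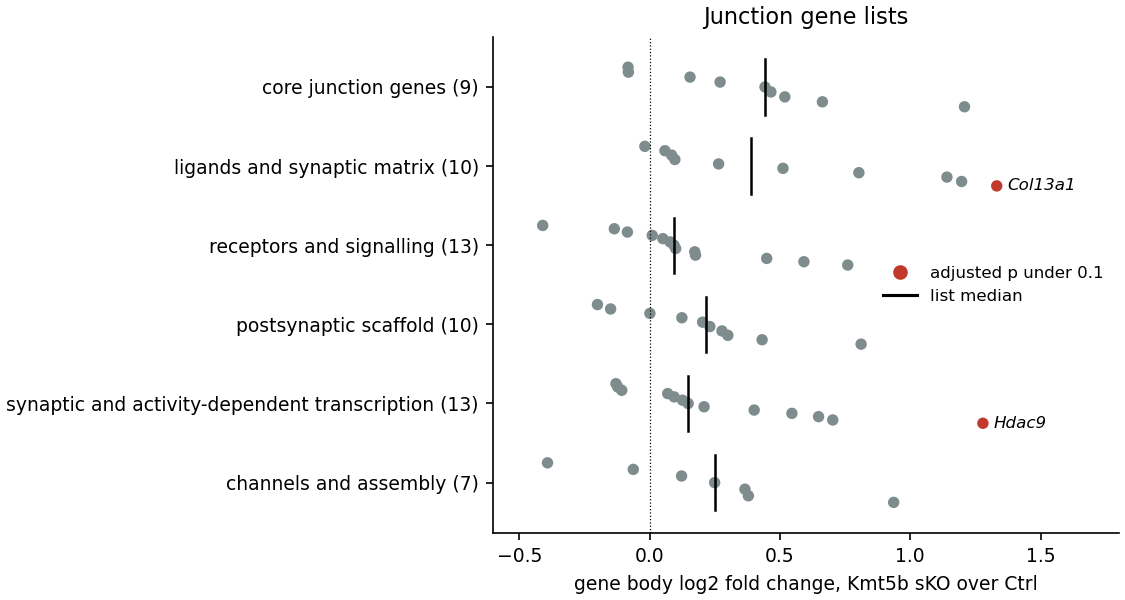
Gene body log2 fold change of Kmt5b sKO over Ctrl for each tested core junction gene and each tested gene of the further lists, with the number of genes in brackets. Each point is a gene, black lines are list medians and red points passed an adjusted p under 0.1. The red points are Col13a1 at 1.33 and Hdac9 at 1.28, and the 9 core junction genes in the top row have a median of 0.44.

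Genes of early muscle differentiation were followed beside the core junction genes. The mean log2 gene body level of 12 such genes was 7.52, 7.90 and 6.87 (Ctrl) versus 8.11, 7.90 and 8.41 (Kmt5b sKO). That of the 9 core junction genes was 6.58, 6.46 and 6.30 (Ctrl) versus 6.68, 6.73 and 7.11 (Kmt5b sKO). Both means were lowest in Ctrl replicate 3 and highest in Kmt5b sKO replicate 3. By this mean only the core junction genes were apart, as Ctrl replicate 2 was level with Kmt5b sKO replicate 2 for the differentiation genes. Their summed gene body levels were apart, at 2368 to 4533 TPM in Ctrl and 4684 to 6293 TPM in Kmt5b sKO. Of the 12 differentiation genes, 11 were higher in Kmt5b sKO in both regions, beside 53.8% (gene body) and 58.2% (TSS region) of all tested genes. The median gene body log2 fold change of the 12 was 0.77. Tnnc1 (troponin C) was called in both regions and Mef2c, a myogenic transcription factor, in the TSS region. These were 1 of 12 gene bodies and 2 of 12 TSS regions, against 2.99% and 1.66% of all tested genes. Of 8 mature fibre genes 5 were tested. All 5 were higher in both regions, beside the same shares of 53.8% and 58.2%, and none was called. Ckmt2 passed the filter only through Kmt5b sKO, so it could enter only as a higher gene. Its means were 0.35 TPM and 0.46 RPM in Ctrl, and 1.23 TPM and 1.47 RPM in Kmt5b sKO. Summed gene body levels of the 8 genes were 378 to 663 TPM in Ctrl and 710 to 1199 TPM in Kmt5b sKO. The part of these genes in the core junction gene values was not tested.

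Markers of other cells that a junction or a muscle preparation could hold were mostly low or not listed. Exceptions were Cd68, an endosomal protein abundant in macrophages, at 214 to 402 TPM, and the fibroblast marker Col3a1, at 36.3 to 54.9 TPM. Of 6 Schwann cell markers 4 were tested, with summed gene body levels of 15.1 to 17.6 TPM in Ctrl and 26.9 to 44.3 TPM in Kmt5b sKO, and none of the 6 was at 0 in all libraries. Sox10 was called in the gene body, from 4.10, 3.64 and 2.14 TPM in Ctrl to 8.14, 15.5 and 8.80 TPM in Kmt5b sKO (1.56 ± 0.31 SE; limma, adjusted p = 0.0754). Foxd3 was called in the TSS region, on at most 10 reads per library. Foxd3 passed the filter only through its TSS values in Kmt5b sKO, with a mean of 3.42 RPM against 0.31 RPM in Ctrl. In each region 1 of the 4 tested markers was called, against 2.99% of all gene bodies and 1.66% of all TSS regions. Of 5 motor neuron markers only Isl1 was listed, at 0.25 to 0.75 TPM in Ctrl and 0.41 to 1.11 TPM in Kmt5b sKO. The 4 listed of 6 fibroblast markers summed to 46.1 to 61.5 TPM in Ctrl and 42.6 to 48.8 TPM in Kmt5b sKO, the 2 listed of 5 endothelial markers to 1.83 to 2.96 TPM in Ctrl and 3.74 to 4.05 TPM in Kmt5b sKO, and the 2 listed of 5 immune markers, Cd68 and Itgam, to 214 to 402 TPM in Ctrl and 320 to 326 TPM in Kmt5b sKO, of which Itgam made up at most 0.65 TPM. None of these last 4 lists had a called gene, and their part in the core junction gene values was not tested.

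Across the 6 libraries the core junction genes moved together only in part. Of the 36 pairs of tested genes, 30 had a Pearson correlation of log2 gene body level above 0, with a median of 0.52 and a range from -0.53 to 0.99. The non-member genes whose log2 gene body level followed the mean of the 9 most closely were Ccdc141 (r = 0.998), Fbxl2 (r = 0.998), Slc8a3 (r = 0.988), Cfap20 (r = 0.986) and Aktip (r = 0.986), and 72 of 12442 genes had a correlation over 0.95. These values describe 6 libraries that also share differences in depth and genotype.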

How the data were processed

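PRO-seq libraries of 3 Ctrl and 3 Kmt5b sKO MuSC samples were used. Per the labels and the study's methods, the authors trimmed reads with Trimmomatic 0.39, checked them with FastQC 0.11.8, aligned them to GRCm38 with STAR 2.6.1d, keeping a random position for multi-mapping reads, and removed duplicates with Picard 2.18.16. Removing duplicates without molecular identifiers caps strongly transcribed positions. For 1 isoform per gene and from strand-matched reads, the authors deposited both TSS region and gene body values normalised as TPM. Every TSS region is 400 nt long, so the deposited TSS values equal RPM up to a constant and are named so here.

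After adding 0.5 and taking log2, values were compared by limma 3.58.1 (R 4.3.3; lmFit, then eBayes with a trend), with Benjamini-Hochberg adjustment over 12451 genes, leaving out chromosomes X and Y and means under 0.5 in either region. A gene was called at an adjusted p under 0.1. Deposited TSS values, and gene body values of genes with bodies under 2000 nt, gave whole reads in 100% of those checked (tolerance 0.1 reads). Reads of longer bodies were computed with the same step and rounded, and where 1 read is worth less than the printed decimals they are estimates. edgeR 4.0.16 and DESeq2 1.42.0 were run on these reads as alternatives. Other alternatives varied the pseudocount, filter, scaling, threshold and libraries used. The procedure was run on simulated reads with the same dispersion for every gene, which does not measure power or false calls in these data.

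All members, called genes of the junction lists, and the largest rise and fall of each list are named. Members, lists and marker genes were chosen with earlier results of these data known. Gene positions came from GRCm38 (GENCODE) and promoters from RefSeq.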

Additional observations from a re-analysis of the deposited data

How the results depend on the processing

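With 3 libraries per group, small differences are hard to call, and the few TSS reads of Ache and Chrne limit those values most. For the core junction genes tested, the median log2 fold change kept its sign under all 16 alternatives. It ran from 0.11 to 0.43 for TSS regions and from 0.28 to 0.49 for gene bodies. Changing only the filter, the chromosomes kept, the trend, the threshold or the replicate block cannot move these medians. Those alternatives are therefore no check of them. The number of genes called stayed 0 in the TSS region and for the pausing index. In the gene body it was 2 by DESeq2 on recovered reads (Chrng and Ache) and between 0 and 1 on leaving out a library, with Ache called without Ctrl replicate 3. Without that library 836 gene bodies were called over all genes. The causes were not tested. On leaving out a library, log2 fold changes that changed sign ran from -0.20 to 0.28 (TSS region) and -0.34 to 0.19 (gene body) for Lrp4, from -0.35 to 0.093 for Rapsn and from -0.027 to 0.30 for Chrnb1 in the gene body. For the pausing index they ran from -0.17 to 0.21 for Chrna1, -0.12 to 0.15 for Chrng, -0.024 to 0.20 for Lrp4, -0.10 to 0.085 for Rapsn and -0.36 to 0.089 for Musk. With median ratio scaling the pausing index differences were -0.040 for Chrna1 and -0.034 for Chrng, and with recovered reads per nt, an alternative chosen after seeing the data, they were -0.033 and -0.026. No pausing value was called in any of these.

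The number of calls over all genes depended strongly on the setting. Against 207 TSS regions and 372 gene bodies, limma called 0 in the TSS region without the filter on low values and 0 without a trend. At an adjusted p under 0.05 the counts were 64 and 1, edgeR called 748 and DESeq2 1295 gene bodies, and leaving out a library gave 1 to 408 and 0 to 836. Higher calls were 116 of 207 in the TSS region and 97 of 227 under median ratio scaling. For the pausing index, 1 gene was called with a pseudocount of 0.5 in both regions and 9 with reads per nt. Deviations of same-numbered libraries from their group means correlated negatively (-0.33 to -0.034), which gave no sign of pairing by replicate number but cannot exclude it. With a replicate block, 0 genes were called in either region, with 1141 and 1441 at an unadjusted p under 0.05. The medians of the core junction genes were again 0.28, 0.44 and 0.018. A block cannot move them, as both groups hold the same replicate numbers. The block thus ended the 4 limma calls on Col13a1, Hdac9 and Smyd1, while no core junction gene was called with or without it.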
